A study of Mus musculus with 9 samples.

Results

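Trimethylation of lysine 4 on histone H3 (H3K4me3) was mapped in bone marrow LSK cells with and without Dek, in 1 library per genotype, and the 2 deposited peak lists are compared here. Peaks of both lists on chromosomes 1 to 19 were joined wherever they overlapped by 1 bp or more. This gave 10835 regions, made from 9863 cKO peaks and 10199 fl peaks, out of 60502 peaks on those chromosomes in the 9 libraries of the series. Each region was in both lists, in cKO only or in fl only, and the width of the mark was read from the peak coordinates. The cKO mice carried floxed Dek alleles together with Tie2-Cre (Dekfl/fl,Tie2-Cre), and the fl mice carried the floxed alleles without the recombinase (Dekfl/fl). All were C57BL/6 mice aged 12 weeks, given as 3 months in the sample labels, and were kept without a challenge. About 50000 LSK cells, gated as Lin-Sca-1+c-Kit+, were sorted for each library. The Tie2 promoter is active in endothelial cells and in blood-forming cells from development onwards, so deletion is not limited to stem cells. How many animals contributed to a library is not stated. With 1 library per genotype no test between genotypes is possible, no difference below has a replicate check, and no p-value is given. Intervals are exact Clopper-Pearson 95% intervals and cover counting error only.

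Methyltransferases of the SET1 and MLL families place H3K4me3, and demethylases of the KDM5 family remove it. The mark sits mainly just downstream of active or poised gene starts, above all those in CpG islands, where CXXC-domain proteins bring the enzymes to unmethylated CpG dinucleotides. Long H3K4me3 domains are known to lie over genes that define the identity of a cell. LSK cells are the fraction of bone marrow that holds the blood stem cells and the earliest multipotent progenitors. DEK is a DNA-binding chromatin protein, abundant in the nucleus, that binds histones and acts as a histone chaperone.

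The peaks at known marker genes were compared with the labelled gate. Of 12 LSK marker genes, 9 had a peak within 1000 bp of the start in the cKO list and 9 in the fl list, and 8 of them, including Kit, Cd34, Meis1, Runx1 and Gata2, were in both. Ly6a, which encodes the Sca-1 antigen used for sorting, and Slamf1 had no peak in either list. Hlf was in cKO only and Cd48 in fl only. None of 5 T cell markers and none of 5 stromal markers had a peak. Of 6 mature myeloid markers 1 had a cKO peak and 0 an fl peak. Of 5 endothelial markers 0 had a cKO peak and 1, Tie1, an fl peak. Of 6 B cell markers 2, Cd79b and Ebf1, were in both lists, and of 5 measured erythroid markers 1, Klf1, was in both.

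The sequences just before 8 gene starts are printed as examples. They are the start of Dek itself, starts with a peak in 1 list only, 1 start each from the largest differences in width, and the start under the broadest region. Each is the 250 bases before the annotated start, from RefSeq on GRCm38.p6, written 5′ to 3′ along the gene, with CG dinucleotides in capitals.
Dek, chr13:47106222-47106471, minus strand: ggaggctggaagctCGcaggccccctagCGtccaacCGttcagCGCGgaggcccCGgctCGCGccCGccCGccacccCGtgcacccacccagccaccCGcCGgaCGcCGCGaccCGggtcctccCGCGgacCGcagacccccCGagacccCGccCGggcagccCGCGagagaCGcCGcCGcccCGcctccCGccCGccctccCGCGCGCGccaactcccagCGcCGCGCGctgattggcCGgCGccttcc
Amdhd1, chr10:93540034-93540283, minus strand: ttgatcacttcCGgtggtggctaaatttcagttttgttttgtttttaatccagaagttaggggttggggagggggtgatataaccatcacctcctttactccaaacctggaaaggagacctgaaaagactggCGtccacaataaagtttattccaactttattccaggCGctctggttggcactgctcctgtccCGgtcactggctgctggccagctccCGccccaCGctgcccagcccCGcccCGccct
Ccz1, chr5:144014854-144015103, minus strand: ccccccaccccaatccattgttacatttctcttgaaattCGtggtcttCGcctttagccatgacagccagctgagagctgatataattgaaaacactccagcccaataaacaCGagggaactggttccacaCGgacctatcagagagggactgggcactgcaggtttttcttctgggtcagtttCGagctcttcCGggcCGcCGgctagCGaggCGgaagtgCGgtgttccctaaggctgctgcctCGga
S100a8, chr3:90668821-90669070, plus strand: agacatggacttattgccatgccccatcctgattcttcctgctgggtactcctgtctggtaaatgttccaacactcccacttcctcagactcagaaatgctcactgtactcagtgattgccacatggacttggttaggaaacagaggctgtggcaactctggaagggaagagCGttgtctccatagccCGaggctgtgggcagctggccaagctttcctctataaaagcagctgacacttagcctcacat
Mpo, chr11:87793534-87793783, plus strand: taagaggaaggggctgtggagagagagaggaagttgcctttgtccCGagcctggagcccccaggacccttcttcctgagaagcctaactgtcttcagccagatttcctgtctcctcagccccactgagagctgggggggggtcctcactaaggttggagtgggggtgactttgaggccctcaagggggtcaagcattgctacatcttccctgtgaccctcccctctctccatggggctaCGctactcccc
R3hdm2, chr10:127380418-127380667, plus strand: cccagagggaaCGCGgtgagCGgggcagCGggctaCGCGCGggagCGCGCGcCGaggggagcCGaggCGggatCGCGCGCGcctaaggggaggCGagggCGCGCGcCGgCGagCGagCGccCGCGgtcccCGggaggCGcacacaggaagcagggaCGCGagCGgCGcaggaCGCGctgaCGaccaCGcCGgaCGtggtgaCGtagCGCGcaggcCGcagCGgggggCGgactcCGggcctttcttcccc
Tent5c, chr3:100489193-100489442, minus strand: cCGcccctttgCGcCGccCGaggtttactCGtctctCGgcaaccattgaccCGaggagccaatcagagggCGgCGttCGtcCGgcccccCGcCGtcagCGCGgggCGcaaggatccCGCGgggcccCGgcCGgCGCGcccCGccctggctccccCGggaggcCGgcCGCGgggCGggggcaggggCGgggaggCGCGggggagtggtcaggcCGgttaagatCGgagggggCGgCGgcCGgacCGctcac
Cdk6, chr5:3343643-3343892, plus strand: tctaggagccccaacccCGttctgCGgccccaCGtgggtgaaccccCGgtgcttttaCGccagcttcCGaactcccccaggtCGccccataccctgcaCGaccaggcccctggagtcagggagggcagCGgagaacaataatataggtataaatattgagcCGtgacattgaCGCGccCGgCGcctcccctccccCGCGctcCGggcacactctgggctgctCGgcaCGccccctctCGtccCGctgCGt
CG dinucleotides number 41 at Dek, 46 at R3hdm2, 37 at Tent5c and 22 at Cdk6, which are starts marked in both lists. They number 8 at Amdhd1 and 12 at Ccz1, the starts of strong cKO-only and fl-only regions, and 2 each at S100a8 and Mpo, genes of maturing myeloid cells with a peak in cKO only and fl only. The printed starts with a peak in 1 list do not stand for their classes. In 300 bases around the start, the median was 16 for all cKO-only starts (quartiles 9 to 25). For all fl-only starts it was 18 (quartiles 11 to 24.75), and for starts in both lists 23.

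The targeted gene and 5 genes that the study discusses carried the mark in both genotypes. The region at the start of Dek, chr13:47105593-47106652, spanned 939 bp in cKO and 1060 bp in fl. It reached 310 bp before the start in cKO and 431 bp in fl, while the downstream edge lay 628 bp into the gene in both. A peak at the start does not check the deletion, since an allele that lost internal exons can keep its promoter. Akt1, a kinase of growth factor signalling, had a region of 1689 bp in cKO and 1843 bp in fl. The related Akt2 had 995 bp in cKO and 960 bp in fl. Ccnb2, a mitotic cyclin, had 534 bp in cKO and 661 bp in fl. Cdkn1a, which encodes the CDK inhibitor p21, had 1635 bp in cKO and 1614 bp in fl. Ncor1, a nuclear receptor corepressor, had 1158 bp in cKO and 1167 bp in fl. The log2 ratio of cKO over fl width ran from -0.31 at Ccnb2 to 0.05 at Akt2, so none of the 6 genes differed in width by 1.5-fold or more. The authors' −log10 q, described below, was lower in cKO at each of the 6. At Akt1 it was 28.6 in cKO and 29.2 in fl, and at Cdkn1a 30.4 in cKO and 71.9 in fl. This value scales with the depth of a library, which is unknown here.

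Most of the mark was in the same places. Of the 10835 regions, 9142 (84.4%, interval 83.7 to 85.1%) were in both lists, 662 (6.11%, 5.67 to 6.58%) in cKO only and 1031 (9.52%, 8.97 to 10.1%) in fl only. Regions in both lists had a median width of 787 bp in cKO and 836 bp in fl. Regions in 1 list were short, with a median of 393 bp for cKO only and 408 bp for fl only. A median of 34828 bp separated a cKO-only region from the nearest fl peak, and 37424 bp an fl-only region from the nearest cKO peak. Some were close: 67 cKO-only regions (10.1%) and 69 fl-only regions (6.69%) lay within 1 kb of a peak of the other list. The share in cKO only ran over the 19 chromosomes from 4.75% on chromosome 14 to 7.99% on chromosome 6. The share in fl only ran from 6.89% on chromosome 3 to 11.3% on chromosome 12, so no chromosome held most of either class.

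Regions in 1 list were the weak ones of that list. Each list was ranked by the authors' −log10 q, the caller's significance of a peak over its local background, and split into deciles. In the weakest decile 43.6% of cKO regions had no fl peak and 60.4% of fl regions had no cKO peak. In the next decile these shares were 16.1% for cKO and 26.7% for fl, and in the decile after that 5.82% for cKO and 10.4% for fl. None of 981 regions in the strongest cKO decile lacked an fl peak, which allows a share of up to 0.306% by a limit of 3 counts and 0.375% by the exact interval. At a −log10 q of at least 10, the cKO list had 7814 regions, of which 74 (0.947%) were in cKO only. The fl list had 8475 at that limit, of which 203 (2.40%) were in fl only. At 20 or above, 0 cKO regions lacked an fl peak and 13 fl regions lacked a cKO peak. The −log10 q also scales with the depth of a library, which is unknown here. Its median over all peaks was 20.3 in the cKO list and 24.5 in the fl list, so the same limit does not keep the same peaks in both, and its part in the shorter cKO list was not tested.

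**Figure D1:**
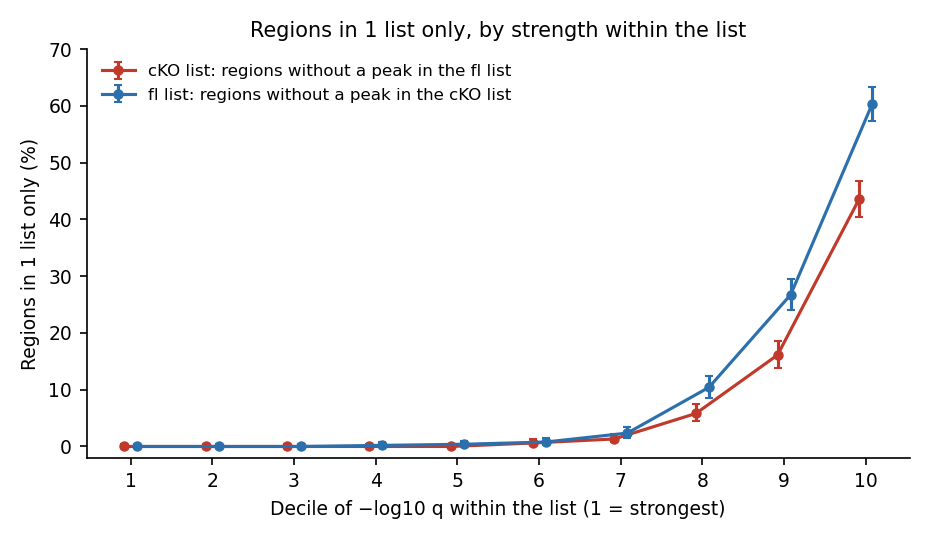
Share of H3K4me3 regions found in 1 list only (y axis, %) in each decile of −log10 q within the list (x axis, strongest first), for cKO (red) and fl (blue), with 95% intervals. The share stays near 0 in the stronger deciles and reaches 43.6% in the weakest cKO decile and 60.4% in the weakest fl decile.

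Regions in 1 list lay at gene starts less often than shared regions, in both genotypes. A region counted as lying at a gene start when a protein-coding start was within 1000 bp. That held for 370 cKO-only regions (55.9%, 52.0 to 59.7%), 599 fl-only regions (58.1%, 55.0 to 61.1%) and 8271 regions in both lists (90.5%, 89.9 to 91.1%). Within a list the share at gene starts was also lower where −log10 q was lower. It was 96.6% in the strongest and 65.0% in the weakest cKO decile, and 96.6% and 58.1% in those of fl. The part of peak strength in the contrasts of location and sequence in this paragraph was not tested. Outside gene starts, 24.6% of cKO-only, 23.3% of fl-only and 5.70% of shared regions lay inside a gene. Between genes lay 19.5% of cKO-only, 18.6% of fl-only and 3.83% of shared regions. Starts with a cKO-only peak had a median of 16 CpG dinucleotides in the 300 bases around the start, and starts with an fl-only peak had 18. Starts with a peak in both lists had 23, and starts with a peak in neither had 4. The motif GGGCGG, the core bound by Sp1-family factors, was searched on both strands. It was present at 60.7% of cKO-only, 62.6% of fl-only, 70.4% of shared and 25.7% of unmarked starts, against 47.0% of all 20085 promoter sequences. CCGGAA, the core of many ETS-family sites, was at 21.0% of cKO-only, 23.8% of fl-only, 32.8% of shared and 7.01% of unmarked starts, against 19.1% of all. TATAAA was at 7.33% of cKO-only, 7.62% of fl-only, 5.27% of shared and 19.5% of unmarked starts, against 12.7% of all. For these 3 motifs the intervals of the cKO-only and fl-only starts overlapped, and for TATAAA the cKO-only and fl-only intervals also overlapped that of the shared starts. CCAAT was at 37.7% of cKO-only, 38.7% of fl-only, 37.8% of shared and 38.4% of unmarked starts, against 38.1% of all, with overlapping intervals. GATAA, the core of GATA-factor sites, was at 16.7% of cKO-only, 16.2% of fl-only, 13.5% of shared and 30.3% of unmarked starts, against 22.3% of all. The GATAA intervals of cKO-only, fl-only and shared starts overlapped.

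Acetylation of lysine 27 on histone H3 (H3K27ac), a mark of active promoters and enhancers, was mapped by the study in LSK cells of the same genotypes. Its lists differ in the opposite direction to the H3K4me3 lists, with 15422 peaks in cKO and 9774 in fl on chromosomes 1 to 19. A cKO H3K27ac peak overlapped 33.2% of cKO-only H3K4me3 regions (29.7 to 37.0%), 39.4% of fl-only regions (36.4 to 42.4%) and 79.2% of regions in both lists. An fl H3K27ac peak overlapped 7.10% of cKO-only regions, 11.3% of fl-only regions (9.48 to 13.4%) and 47.2% of shared regions. Regions with H3K4me3 in fl only thus met cKO acetylation more often than fl acetylation. Regions in 1 list were also weaker and shorter than shared regions, and the part of this in the contrast with shared regions was not tested. An H3K27ac peak in the cKO list only was found at 175 cKO-only regions (26.4%) and at 293 fl-only regions (28.4%). The longer cKO H3K27ac list and the H3K4me3 classes cannot be told apart from differences in depth between libraries. The DEK peaks of fl HSC, a narrower stem cell gate, overlapped 3 cKO-only regions (0.453%), 5 fl-only regions (0.485%) and 43 shared regions (0.470%) in any of 3 libraries. These shares did not differ beyond their intervals.

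**Figure D2:**
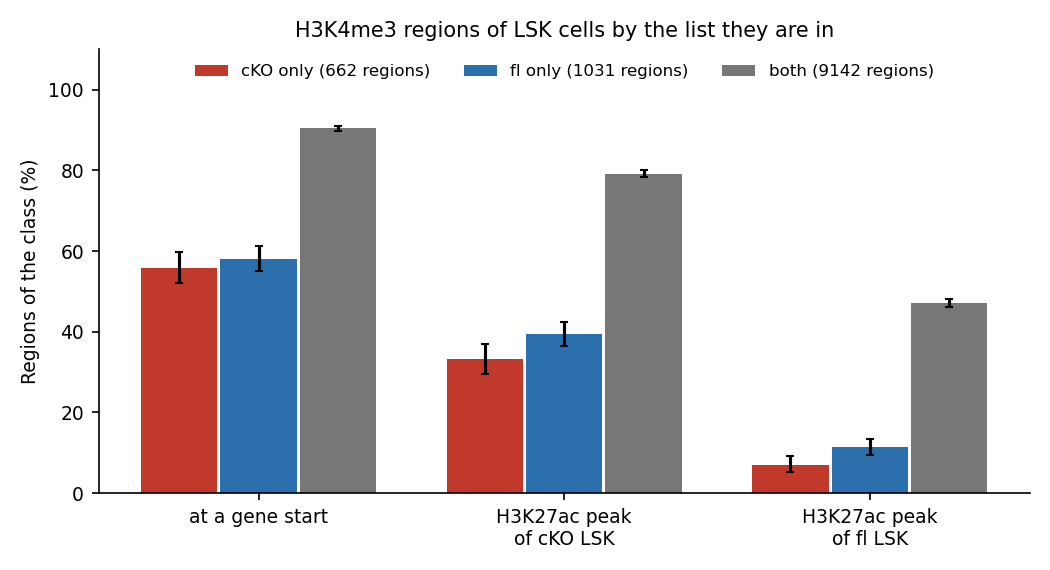
Share of H3K4me3 regions (y axis, %) in cKO only (red), in fl only (blue) and in both lists (grey) that lie at a gene start or overlap an H3K27ac peak of cKO or of fl LSK cells; error bars are 95% intervals. The classes found in 1 list lie below the shared regions on each measure.

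The 12 strongest starts marked in cKO only held none of the genes of the stem cell identity list described below. That list has only 38 of the 20665 genes, so its absence among 12 regions is uninformative. The highest −log10 q, 18.7, was at Dera, a deoxyribose-phosphate aldolase, with a peak of 680 bp at chr6:137754554-137755233. The reference gives no start for Dera, so this peak lies near 1 of its 2 annotated ends. Next came the shared start of Amdhd1, an enzyme of histidine breakdown, and Ccdc38, with 455 bp at chr10:93539917-93540371. This peak ran from 338 bp before the start of Amdhd1, printed above, to 116 bp after it. The peak at Fam110c was the longest of the 12 named, 1007 bp at chr12:31074097-31075103. Myo1f, a myosin of immune cells, had 436 bp. Pstk, a kinase needed to make selenocysteine tRNA, had 512 bp, and Vps41, a subunit of the HOPS tethering complex, had 370 bp. Proca1, Zfp174, Tbc1d24, Prpsap2 and Zfp940 had 381 to 462 bp. The region at Lgals9, which encodes galectin-9, lay only 285 bp from an fl peak, and the gene counts as marked in both lists.

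The strongest starts marked in fl only had higher −log10 q in their own list, from 18.98 to 29.8. Ccz1, part of the exchange factor that activates Rab7, had 455 bp at chr5:144014497-144014951, from 98 bp before the start to 356 bp after it. The nearest cKO peak was 85402 bp away. Mfn1, a mitochondrial fusion protein, had 391 bp at chr3:32529451-32529841. Smdt1, the EMRE subunit of the mitochondrial calcium uniporter, had 503 bp at chr15:82345973-82346475. Ldah, a hydrolase of lipid droplets, had 357 bp at chr12:8208058-8208414. Kifap3, an adaptor of kinesin-2, had 527 bp, and Plgrkt, a plasminogen receptor, had 391 bp. Ctnnbl1, Wdsub1, Mctp2, Zfp874a and Gm9805 had 349 to 519 bp. The peak of 655 bp at Slc4a2, an anion exchanger, lay 756 bp from a cKO peak and the gene counts as marked in both. Zinc finger genes appear among the strongest in both lists, so all 388 genes with a Zfp symbol were counted after these values were seen. Of them 8 (2.06%, 0.894 to 4.02%) were marked in cKO only and 18 (4.64%, 2.77 to 7.23%) in fl only, beside 1.65% and 2.77% of all genes in those 2 classes. Marked in both lists were 259 (66.8%), beside 44.2% of all genes. Zfp genes were thus marked more often in general, and their shares in 1 list are not a result about these genes.

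Where both lists had the mark, its width was nearly the same, with a small shift towards narrower regions in cKO. The median log2 ratio of cKO over fl width was -0.06 (quartiles -0.24 to 0.07). Of the 9142 matched regions 3273 were wider in cKO, 5705 narrower and 164 of equal width, and 144 had identical coordinates. At least 1.5-fold wider in cKO were 223 regions (2.44%), and at least 1.5-fold narrower were 573 (6.27%). With ratios centred on their median, 277 were wider and 441 narrower. The median over a chromosome ran from -0.08 on chromosome 16 to -0.04 on chromosome 19, so the shift was not that of 1 chromosome. Pearson's r of log2 width over the matched regions was 0.853, across regions of 2 libraries that share the caller and the genome. The share that differed by 1.5-fold or more varied with width. Up to 400 bp of geometric mean width, 7 of 290 regions (2.41%) were wider and 2 (0.690%) narrower in cKO. The shortest peak was 309 bp in both lists, so regions this short had little room to differ by 1.5-fold. Their low share is not a result about short regions. Between 400 and 600 bp, 103 of 1969 regions (5.23%) were wider and 233 (11.8%) narrower in cKO. Between 1500 and 2000 bp, 1 of 470 (0.213%) was wider and 8 (1.70%) narrower, and above 2000 bp none of 115 was either. Regions with H3K27ac in both genotypes were 1.5-fold narrower in 4.13% of 4265 cases, and those with H3K27ac in neither in 9.75% of 1856. Regions without H3K27ac were also shorter, with medians of 621.5 bp in cKO and 664.5 bp in fl, against 853 bp in cKO and 893 bp in fl with H3K27ac in both, and the part of width in this contrast was not tested.

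**Figure D3:**
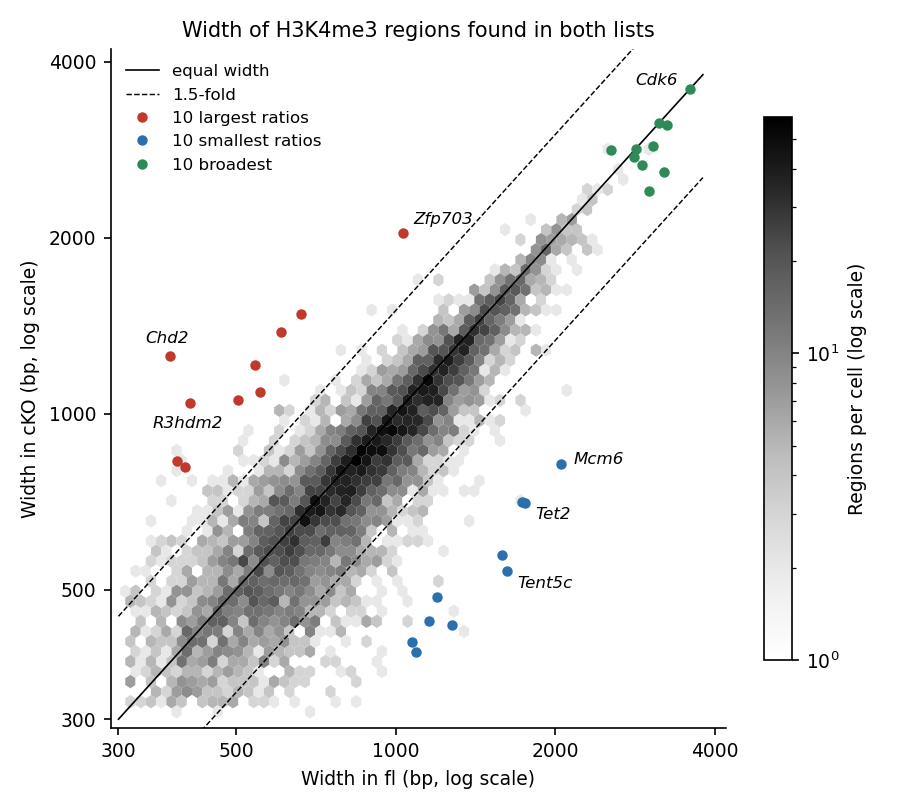
Width of the 9142 matched regions in cKO (y axis, bp, log scale) against fl (x axis, bp, log scale), shaded by the number of regions. The solid line marks equal width and the dashed lines 1.5-fold; the red, blue and green points are the 10 largest ratios, the 10 smallest ratios (at gene starts, with −log10 q of at least 10 in both lists) and the 10 broadest regions at genes, and the broadest, at Cdk6, lies on the line.

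The largest widenings in cKO, among 6967 matched regions at gene starts with −log10 q of at least 10 in both lists, reached log2 1.74. The largest was at Chd2, a chromatin remodeller, which had 1256 bp in cKO and 376 bp in fl (log2 1.74). R3hdm2 had 1041 bp in cKO and 410 bp in fl (log2 1.34). Its peak began 300 bp before the start in cKO and 307 bp after it in fl, while the downstream edge moved by only 24 bp, so the cKO peak covered the CG-dense sequence printed above and the fl peak did not. H2az1, which encodes the histone variant H2A.Z, had 1479 bp in cKO and 663 bp in fl, with the extra width again on the upstream side. Vsir, the inhibitory receptor VISTA, had 1211 bp in cKO and 544 bp in fl. There the upstream edges differed by 12 bp and the downstream edge lay 1264 bp into the gene in cKO and 585 bp in fl. Dock2, which activates Rac in leukocytes, had 809 bp in cKO and 401 bp in fl. Nfkbiz, a nuclear regulator of NF-kB targets, had 1053 bp in cKO and 505 bp in fl. Gse1, Ggn, Zfp703 and Gtpbp3 complete the 10, with log2 ratios of 0.97 to 1.18.

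The largest narrowings in cKO, with the same limit on −log10 q in both lists, included Tet2 and Mcm6. Without that limit, the log2 ratio of matched regions at gene starts went down to -2.10. Tent5c, a cytoplasmic poly(A) polymerase, had 538 bp in cKO and 1619 bp in fl (log2 -1.59). Its cKO peak ended 11 bp after the start and the fl peak 754 bp after it. Tet2, which oxidises 5-methylcytosine and restrains self-renewal of blood stem cells, had 704 bp in cKO and 1757 bp in fl (log2 -1.32). The upstream edge of Tet2 lay 530 bp before the start in cKO and 520 bp in fl, whereas the downstream edge lay at 173 bp in cKO and 1236 bp in fl. Mcm6, a subunit of the replicative helicase, had 819 bp in cKO and 2050 bp in fl, and here the cKO list held 2 separate peaks under 1 fl peak. By the widest single peak its log2 ratio was -2.24, against -1.32 over both cKO peaks. Igfbp4, a secreted binder of insulin-like growth factors, had 572 bp in cKO and 1585 bp in fl. Tead3, a transcription factor of the Hippo pathway, had 407 bp in cKO and 1074 bp in fl. Chsy1, a chondroitin synthase, had 706 bp in cKO and 1735 bp in fl, with the cKO peak starting 497 bp after the start and the fl peak 387 bp before it. Necap2, Cby1 with Fam227a, Glis2 and Arhgap32 had log2 ratios of -1.55 to -1.30. The −log10 q was 18.2 in cKO and 14.9 in fl at Tet2 and 11.6 in cKO and 10.1 in fl at Tent5c. At Tead3 it was 16.2 in cKO and 42.0 in fl, and at Mcm6 22.1 in cKO and 41.9 in fl.

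Edges were followed at 5113 single annotated starts with a matched region. The median region reached 112 bp upstream in cKO and 130 bp in fl, and 617 bp downstream in cKO and 639 bp in fl. The summit lay at a median of 212 bp after the start in cKO and 213 bp in fl. The start itself was covered by 74.7% of cKO regions and 78.1% of fl regions. In the 322 regions that were 1.5-fold narrower in cKO, the upstream edge lay at a median of 29 bp in cKO and 135 bp in fl, and the downstream edge at 452.5 bp in cKO and 687.5 bp in fl. More of the difference was at the downstream edge in 61.2% of them (55.6 to 66.5%). In the 120 regions that were 1.5-fold wider, that share was 61.7% (52.4 to 70.4%), and the start was covered in 71.7% in cKO and 50.0% in fl. Of all 5113 regions, 55.1% (53.7 to 56.5%) differed more at the downstream edge.

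**Figure D4:**
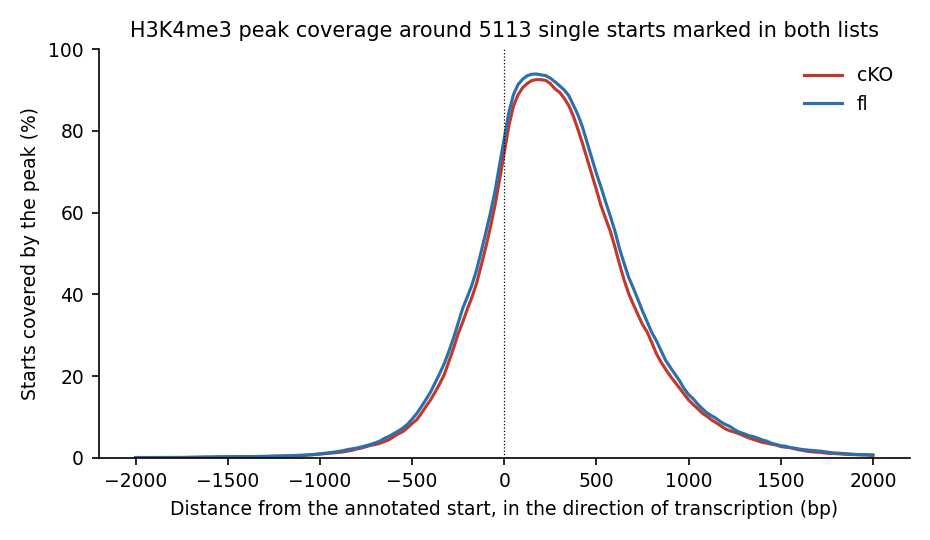
Share of 5113 single starts covered by the H3K4me3 peak (y axis, %) at each distance from the annotated start in the direction of transcription (x axis, bp), in cKO (red) and fl (blue). The cKO curve lies just inside the fl curve on both flanks, and 74.7% of starts are covered at 0 bp in cKO and 78.1% in fl.

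The broadest regions were held in both genotypes. Cdk6, a G1 kinase and partner of the D-type cyclins, had the broadest region in either list, 3591 bp in both with identical coordinates, chr5:3341204-3344794. It reached 2689 bp before the start and 901 bp after it. Midn had 3120 bp in cKO and 3252 bp in fl. Msl2, a ubiquitin ligase of the MSL complex, had 3147 bp in cKO and 3142 bp in fl. Myc, the growth regulator, had 2659 bp in cKO and 2919 bp in fl. Zfp36l2, which destabilises AU-rich mRNAs, had 2588 bp in cKO and 3205 bp in fl, and the start shared by Cramp1l and Ift140 had 2407 bp in cKO and 3006 bp in fl, the lowest log2 ratios of the 10 at -0.31 and -0.32. Smarca2, a SWI/SNF ATPase, had 2823 bp in cKO and 2552 bp in fl. Cux1, Ubtf and Ppp1r9b had log2 ratios of -0.09 or closer to 0. Of the 457 broadest regions of each list, 347 were shared (75.9% of each list). The widths that bound these sets were 1564 bp in cKO and 1621 bp in fl. These sets were drawn from matched regions, and the 10 named by mean width over both lists, which favours similar widths. The longest region in 1 list only was shorter than these bounds, 1158 bp in cKO and 1394 bp in fl. In 59 matched regions 2 cKO peaks met 1 fl peak, as at Mcm6, Cd34, Cxcr4 and Trp53, and in 26 regions 2 fl peaks met 1 cKO peak, as at Fli1, Crebbp, Zbtb16 and H2-Ab1.

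Of 20665 protein-coding genes on chromosomes 1 to 19, 9141 (44.2%) had a peak within 1000 bp of the start in both lists, 340 (1.65%) in cKO only, 572 (2.77%) in fl only and 10612 in neither. These classes depend on the window. The peak of 15 cKO-only and 19 fl-only genes belonged to a region found in both lists. Another 18 genes counted as in both only through separate regions of 1 list. Of the 9123 genes with a matched region, 191 (2.09%) had it at least 1.5-fold wider in cKO and 505 (5.54%) at least 1.5-fold narrower, with a median log2 ratio of -0.06. For 4208 genes the reference gives no start and both annotated ends were searched. In 19 lists of genes with known roles, 507 of 517 genes were measured. Of these 338 were in both lists, 7 in cKO only, 15 in fl only and 147 in neither. The lists and their counts are descriptions, and no list was tested.

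**Figure D5:**
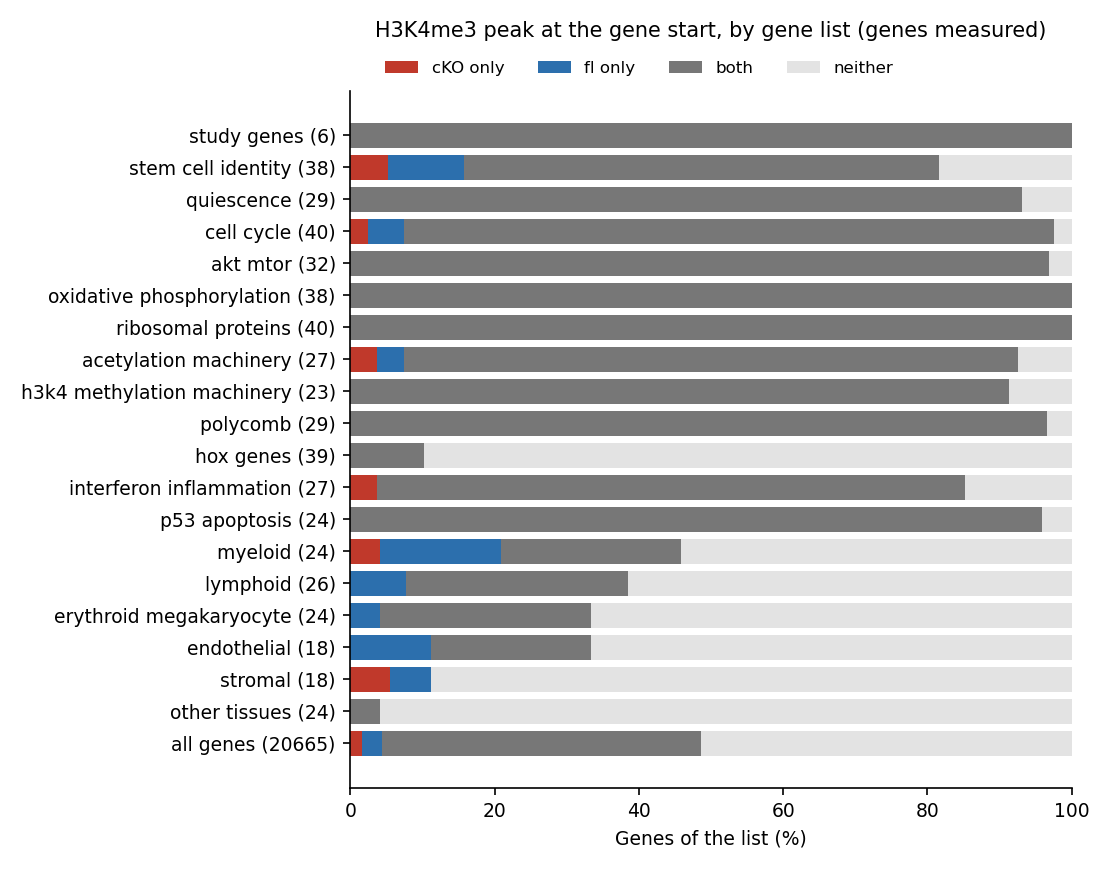
Share of the genes in each list (x axis, %) with an H3K4me3 peak at the start in cKO only (red), in fl only (blue), in both (dark grey) or in neither (light grey); the number of measured genes is in brackets and the bottom bar is all 20665 genes. The ribosomal protein and oxidative phosphorylation bars are wholly in both, and the myeloid bar, with 1 gene in cKO only and 4 in fl only of 24, has the greatest share in 1 list.

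Among 38 genes of stem cell identity, 25 were in both lists, 2 in cKO only, 4 in fl only and 7 in neither. The median log2 width ratio of the 25 was -0.03, beside -0.06 over all genes. The widest were Fli1, with 2374 bp in cKO and 1860 bp in fl, and Egr1, with 1897 bp in cKO and 2146 bp in fl, both transcription factors of early blood cells. Lyl1, with 1972 bp in cKO and 2055 bp in fl, and Mycn, with a log2 ratio of -0.04, followed. Wider in cKO by 1.5-fold or more were 3: Mecom, Gfi1b and Esam. Mecom, a zinc finger regulator of stem cell self-renewal, had 1536 bp in cKO and 911 bp in fl, and all of the difference was at the downstream edge. Gfi1b, a repressor needed in the erythroid and megakaryocyte lineages, had 699 bp in cKO and 453 bp in fl. Esam, a surface protein of stem cells and endothelium, had 1090 bp in cKO and 524 bp in fl. Narrower were 5: Hoxb4, Myb, Hmga2, Fgd5 and Flt3. Myb, required for progenitor growth, had 882 bp in cKO and 1567 bp in fl, with the downstream edge at 459 bp in cKO and 1168 bp in fl. Hoxb4, which expands stem cells when overexpressed, had 459 bp in cKO and 1034 bp in fl, and Hmga2, a chromatin protein of fetal stem cells, had 1081 bp in cKO and 2121 bp in fl. Flt3, the cytokine receptor of multipotent progenitors, had 481 bp in cKO and 828 bp in fl, and Fgd5, a stem cell marker, had 412 bp in cKO and 661 bp in fl. Of the 25 matched stem cell genes 3 were thus wider and 5 narrower, beside 2.09% wider and 5.54% narrower of all 9123 genes with a matched region.

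The stem cell genes marked in 1 genotype had short and mostly weak peaks. Cd48, a surface antigen of progenitors, had an fl peak of 750 bp at chr1:171682068-171682817 with a −log10 q of 16.4, and the nearest cKO peak was 177782 bp away. Erg, an ETS factor of stem cells, had an fl peak of 560 bp, but a cKO peak lay 333 bp from it, outside the 1000 bp window of the start. Procr, the endothelial protein C receptor used to isolate stem cells, had an fl peak of 390 bp with a −log10 q of 3.02. Lmo2, a bridging protein of the SCL complex, had a cKO peak of 332 bp with a −log10 q of 3.63, near 1 of its annotated ends. Hlf, a stem cell transcription factor, had a cKO peak of 606 bp with a −log10 q of 4.92, and an fl peak lay 667 bp from it.

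Of 24 myeloid genes 6 were in both lists, 1 in cKO only, 4 in fl only and 13 in neither, among them Elane, Lyz2 and Itgam. Of all 20665 genes 10612 were in neither, 1.65% in cKO only and 2.77% in fl only. Cebpa, which commits cells to the granulocyte fate, had 2033 bp in cKO and 2671 bp in fl, and Klf4 had 2191 bp in cKO and 2081 bp in fl. Cebpb, a factor of emergency granulopoiesis, had 573 bp in cKO and 1122 bp in fl, and Csf3r, the G-CSF receptor, had 777 bp in cKO and 1169 bp in fl. In fl only, Mpo, the myeloperoxidase of granules, had 1394 bp at chr11:87794637-87796030, with a −log10 q of 9.92. It lay 853 to 2246 bp after the start, away from the CG-poor sequence printed above. Irf8, a factor of the monocyte and dendritic lineages, had 966 bp at chr8:120736441-120737406, a region with H3K27ac in both genotypes. Spi1, which encodes PU.1, had 379 bp and Ly6c2 had 354 bp. In cKO only, S100a8, a calcium-binding protein of neutrophils, had 359 bp at chr3:90669111-90669469, from 40 to 398 bp after the start. The other 5 mature neutrophil markers, Camp, Ltf, Ly6g, Ngp and S100a9, had no peak in either list. The share of myeloid cells in each sorted library was not measured, and fewer marked cells and less mark per cell cannot be told apart in a bulk library.

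Of 26 lymphoid genes 8 were in both lists, 0 in cKO only, 2 in fl only and 16 in neither. The 2 were Il7r, the interleukin-7 receptor, with 475 bp and a −log10 q of 2.72, and Dntt, the terminal transferase of early lymphoid cells, with 751 bp and a −log10 q of 8.29. Across all 20665 genes, 44.2% were marked in each genotype, 1.65% in cKO alone and 2.77% in fl alone. A region at least 1.5-fold narrower in cKO was found at 5.54% of all genes with a matched region. Cd79b, part of the B cell receptor, had 380 bp in cKO and 1079 bp in fl. Satb1, a chromatin organiser, had 1801 bp in cKO and 1941 bp in fl, and Ikzf1, the lymphoid factor Ikaros, had 925 bp in cKO and 900 bp in fl. Of 24 measured erythroid and megakaryocyte genes 7 were in both lists. Klf1, the erythroid master factor, had 434 bp in cKO and 717 bp in fl, while Tal1 had 1880 bp in cKO and 1935 bp in fl. Car2, a carbonic anhydrase, had 1671 bp in cKO and 1193 bp in fl. Of 18 endothelial genes 4 were in both and 2, Tie1 and Erg, in fl only. Of 18 stromal genes 0 were in both. Kitl, the ligand of c-Kit, had a cKO peak of 510 bp, and Pdgfrb, a growth factor receptor, an fl peak of 422 bp. Of 24 genes of other tissues 1, Sftpc, was in both, and its region is shared with the start of Bmp1.

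Genes of growth and division were nearly all in both lists. The all-gene shares were 44.2% marked in each genotype, 1.65% in cKO alone and 2.77% in fl alone. Of 40 cell cycle genes 36 were in both, with a median log2 ratio of -0.14, beside -0.06 over all genes. Ccnd1, a D-type cyclin, was in cKO only with 321 bp, Mcm2, a helicase subunit, in fl only with 372 bp, and Bub1b, a mitotic checkpoint kinase, in fl only with 479 bp. The cKO region was 1.5-fold wider at 1 and narrower at 4, beside 2.09% wider and 5.54% narrower over all genes. Besides Mcm6, these were Mcm5, with 585 bp in cKO and 1164 bp in fl, and Rrm2, a subunit of ribonucleotide reductase, with 727 bp in cKO and 1093 bp in fl. The checkpoint kinase Bub1 had 338 bp in cKO and 508 bp in fl. The partner subunit of Rrm2, Rrm1, was wider, with 1007 bp in cKO and 629 bp in fl. Mcm7, E2f3 and Aurka were the widest after Cdk6, with 1644, 1463 and 1547 bp in cKO, against 1901, 1632 and 1356 bp in fl. All 27 marked genes of a quiescence list of 29 were in both and none differed by 1.5-fold. Foxo3, a stress-responsive factor of quiescent stem cells, had 2473 bp in cKO and 2690 bp in fl, and Junb had 2379 bp in both.

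Signalling and metabolic genes were likewise nearly all in both lists. For comparison, 44.2% of all 20665 genes had a peak in each genotype, 1.65% had it in cKO alone and 2.77% in fl alone. Over all genes with a matched region, 5.54% were at least 1.5-fold narrower in cKO and 2.09% at least 1.5-fold wider. Of 32 genes of AKT and mTOR signalling 31 were in both. Tsc2, which restrains mTORC1, was the only one of the 31 past 1.5-fold, with 383 bp in cKO and 923 bp in fl, at a start shared with Nthl1. All 38 measured genes of oxidative phosphorylation were in both, with a median log2 ratio of -0.09, and 2, Ndufa9 and Atp5d, were narrower in cKO. All 40 ribosomal protein genes were in both and none differed by 1.5-fold. Of 24 genes of the p53 response and apoptosis 23 were in both, and Casp9 and Gadd45g were narrower in cKO. Gadd45g, a stress sensor, had 339 bp in cKO and 624 bp in fl. Of 27 measured interferon and inflammation genes 22 were in both and 1, Ifit2, in cKO only with 336 bp. Irf7, the main inducer of type I interferon, had 580 bp in cKO and 1220 bp in fl.

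Genes of chromatin regulators were nearly all in both lists. Among all 20665 genes the mark was at 44.2% in each genotype, at 1.65% in cKO alone and at 2.77% in fl alone. At 5.54% of all genes with a matched region it was at least 1.5-fold narrower in cKO, and at 2.09% wider. Of 23 measured genes of the H3K4 methylation machinery 21 were in both, with a median log2 ratio of -0.03, and none differed by 1.5-fold. The methyltransferase gene Kmt2a had 1947 bp in cKO and 1866 bp in fl, Kmt2c had 1921 bp in cKO and 2259 bp in fl, and Setd1a had 1474 bp in cKO and 1574 bp in fl. Rbbp5, a core subunit of these complexes, had the highest ratio of the list, with 1172 bp in cKO and 962 bp in fl. The demethylase gene Kdm5a had 1364 bp in cKO and 1394 bp in fl. Of 27 acetylation genes 23 were in both, the deacetylase gene Hdac11 was in cKO only with 352 bp and the acetyltransferase gene Kat8 in fl only with 446 bp and a −log10 q of 18.5. Both of those regions carried H3K27ac in both genotypes. Ep300, the p300 acetyltransferase, had 1462 bp in both lists. Of 29 measured Polycomb genes 28 were in both. Kdm2b, which brings a Polycomb complex to CpG islands, had 1050 bp in cKO, as 2 peaks, and 1870 bp in fl, and Cbx8 had 637 bp in cKO and 413 bp in fl. Of 39 HOX genes 4 were in both and 35 in neither. These were Hoxa3, with 1551 bp in cKO and 1845 bp in fl, Hoxa4, with 386 bp in cKO and 753 bp in fl, Hoxb2, with 771 bp in cKO and 569 bp in fl, and Hoxb4.

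Genes with several promoters add a comparison within a gene. Annotated starts more than 2000 bp apart were present at 1239 genes. At 94 every start had a peak in both lists, and at 523 at least 1 start was marked in both and another in neither. At 47 genes 1 start was in both lists and another in 1 list only, of which 18 had a cKO-only second start and 29 an fl-only one. A start counted as in 1 list only when no peak of the other list lay within 1000 bp. Some such starts lay by a region with peaks in both lists, as at Gcnt2 (838 bp in cKO, 1207 bp in fl), Arhgdib, Psd4, Sh2b1, Sp2 and Tmcc2. At Arhgdib, Psd4, Sh2b1 and Tmcc2 the same region also marked the other start. The lymphoid and stem cell factor Foxp1 had regions in both lists at its starts at 99520993 and 99028298 on chromosome 6, and a cKO peak of 446 bp near the start at 99266515 between them. Pik3r1 and Pik3cd, subunits of PI3-kinase, had cKO-only peaks of 360 and 317 bp at a second start. Dnmt3a, a DNA methyltransferase that limits stem cell self-renewal, had 1911 bp in cKO and 1932 bp in fl at its start at 3806980 on chromosome 12, and an fl-only peak of 1216 bp at 3891744. Phc2, a Polycomb subunit, and Zeb2, a transcriptional repressor, had fl-only peaks of 619 and 600 bp at a second start. At Runx1, the master factor of definitive blood formation, the start at 92697329 on chromosome 16 had 888 bp in cKO and 591 bp in fl, and the start at 92826074 had 1076 bp in cKO and 1160 bp in fl. At Mecom the start at 30509759 on chromosome 3 had 1536 bp in cKO and 911 bp in fl, and the start at 30013204 had 1041 bp in cKO and 1064 bp in fl. Starts of 1 gene thus differed in their ratio within the same pair of libraries.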

How the data were processed

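CUT&Tag, in which a tethered transposase cuts DNA beside an antibody, was run on sorted cells, and the deposited files are peak lists, 1 per library. Bowtie2, Picard and MACS2 and the mm10 build are named, per the submitters' processing notes; their versions, order and settings are not stated there. Each deposited row gives coordinates, an integer score, a fold enrichment over local background, and −log10 p-value and −log10 q-value as the authors' caller gave them. Coordinates alone were compared between lists; the authors' −log10 q ranked or filtered peaks within a list. No list gives read counts, so depth is unknown.

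Here peaks of both H3K4me3 lists on chromosomes 1 to 19 were joined at 1 bp of overlap, and width was the bases covered by a list's peaks. Only 296 cKO and 314 fl peaks were on chromosome X. Genes were matched to RefSeq starts on GRCm38.p6 (16457 genes with a start, 4208 by their annotated ends) within 1000 bp. Overlaps with H3K27ac, DEK and H3K9ac lists used 1 bp, and rows of the DEK lists with irregular fields were left out. The joining step was checked on simulated data. Shares have exact Clopper-Pearson 95% intervals (scipy 1.17.1); other steps used pandas 2.3.3. No test between genotypes was made. The genes named are the 6 study genes, the 12 strongest regions at a start in each list only, the 10 largest and 10 smallest width ratios with −log10 q of at least 10 in both lists, the 10 broadest genes, and, per list of genes, members in 1 list only and the 4 widest. Other genes named were chosen after their values were seen, and a few genes that meet these rules are not reported here. The members and lists were chosen with earlier results of these data known. Alternatives covered peak thresholds, overlaps, gaps, windows, list length and chromosomes.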

Additional observations from a re-analysis of the deposited data

How the results depend on the processing

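Under the alternatives 60 summary values stayed close to their values above, counts within 1.5 times and shares and medians within their intervals, and 8 did not. With only peaks at a −log10 q of at least 5, cKO H3K27ac overlapped 40.8% of cKO-only, 47.1% of fl-only and 80.1% of shared regions, and fl H3K27ac 10.2% of cKO-only and 15.1% of fl-only regions, against 33.2%, 39.4%, 79.2%, 7.10% and 11.3% above. At 2-fold in place of 1.5-fold, 43 regions were wider and 104 narrower in cKO, against 223 and 573. Without peaks under 400 bp, an alternative chosen after seeing the data, 148 were wider and 422 narrower. Centred on the median ratio, 277 were wider and 441 narrower. With both lists at equal length, which by itself makes the 2 counts nearly equal, 723 regions were in cKO only and 756 in fl only, against 662 and 1031 above. The median log2 width ratio stayed at -0.06 in 6 alternatives. Where a ratio could be computed at the 20 regions named for their width ratio, 115 values stayed past 1.5-fold in the same direction, and 1 did not. Gse1 gave 0.53 when peaks within 1000 bp were joined, against 1.18. Without peaks under 400 bp only 17 of the 20 gave a ratio. Chd2 (376 bp in fl), Ggn (387 bp in fl) and Cby1 with Fam227a (391 bp in cKO) were then no longer matched. Mcm6, with 2 cKO peaks, gave no ratio when only regions of 1 cKO and 1 fl peak were kept. Mcm6 gave -2.24, against -1.32, by the widest single peak, without peaks under 400 bp and with only the peaks that reach a −log10 q of 5. No value changed its direction. No paired analysis was possible because there is 1 library per genotype and no test was made. Leaving out a library leaves no comparison. The depth of the libraries is unknown, and presence, width and −log10 q of weak peaks all depend on it.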
